A study of Mus musculus with 2 samples.

Results

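In a mouse pancreatic ductal adenocarcinoma profiled by single-cell RNA sequencing, 295 cells combined high trefoil factor and gastrokine RNA with little or no Vim, the gene for the mesenchymal filament protein vimentin. They were chosen from the whole-tumour library by their own counts. A cell qualified with at least 1000 CPM (UMIs of a gene scaled to a common total of UMIs per cell) summed over Tff1, Tff2 and Gkn3, under 300 CPM of Vim, and under 5000 CPM summed over the acinar enzyme genes Prss2, Try5, Cpb1, Cel, Clps, Pnliprp1 and Pnliprp2. The 295 cells were 11.6% of the 2550 kept barcodes of that library (95% Clopper-Pearson interval 10.4 to 12.9) and 14.8% of the 1997 kept barcodes below the enzyme threshold. They are called trefoil-high cells here. The other 1702 barcodes below the enzyme threshold, called the other cells, comprised 879 Vim-low cells below the trefoil threshold, 7 cells high in both and 816 Vim-high cells below the trefoil threshold.

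Trefoil factors are small, disulphide-rich peptides that mucus-secreting cells release together with mucins, and they help to protect and repair the lining of the gut. In the stomach, TFF1 is made by the surface pit cells that also make the mucin MUC5AC, and TFF2 by mucous neck and gland cells. Gastrokines are stomach-specific secreted proteins, and in the mouse Gkn3 marks mucous neck cells. A normal pancreas makes little of either family, whereas precancerous pancreatic ducts and the classical subtype of pancreatic cancer, the better differentiated of its main subtypes, often carry a gastric programme.

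The series held 2 libraries, 1 from cells sorted for high surface CD9 and 1 from the whole tumour. All cells came from tumours of the mouse model named KPFRR, whose alleles include Pdx1-Flp, Trp53frt/frt, Rosa26FSF-creER and the reporter Rosa26mTmG, so both libraries share every allele. Flp recombinase is driven by the Pdx1 promoter, which is active in the early pancreas. Pdx1 also patterns the distal stomach, and the origin of the trefoil-high cells was not tested. Viable cells were collected by flow cytometry for GFP or for CD9, and 3′ ends of transcripts were sequenced in droplets. The sources used here do not say how many mice each library holds. With 1 library per group there is no replicate error: all intervals below cover counting error only, and no test was made.

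Kept barcodes had a median of 21792 UMIs in the CD9hi library and 17686 UMIs in the whole tumour, and 2 barcode sequences occurred in both, neither with the same counts and neither a trefoil-high cell. Within the whole tumour, the trefoil-high cells had a median of 19850 UMIs and 4228 genes, against 17262 UMIs and 4100 genes in the other cells. Mitochondrial RNA had a median share of 4.76% in trefoil-high cells and 3.70% in the other cells. The GFP reporter had 0 UMIs in both libraries, so the sort cannot be read from the counts. Trp53 had 135 CPM in trefoil-high cells and 214 CPM in the other cells; whether its 3′ end lies inside the deleted part was not given, so these values check nothing.

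The values that chose the cells are a description. The summed trefoil level had a lowest value of 1009 CPM, a median of 5879 CPM and a highest value of 218118 CPM in trefoil-high cells, against a median of 0 CPM in the other cells. Just inside the threshold stood cells at 1009, 1033 and 1058 CPM, and just outside it Vim-low cells at 960, 905 and 899 CPM. The sum is a continuous scale without a gap at the threshold, since 57 Vim-low cells had 500 to 1000 CPM and 47 had 1000 to 2000 CPM. Vim left a gap only among cells above the trefoil threshold: the highest value in a trefoil-high cell was 148 CPM, and the lowest of the 7 cells high in both was 371 CPM. Below the trefoil threshold there was no such gap, since Vim-low cells reached 299.6 CPM and Vim-high cells began at 305 CPM. Of the 295 trefoil-high cells, 43 had any Vim UMI. For the enzymes, the closest cells had 4979 CPM inside the threshold and 5106 CPM outside it.

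**Figure D1:**
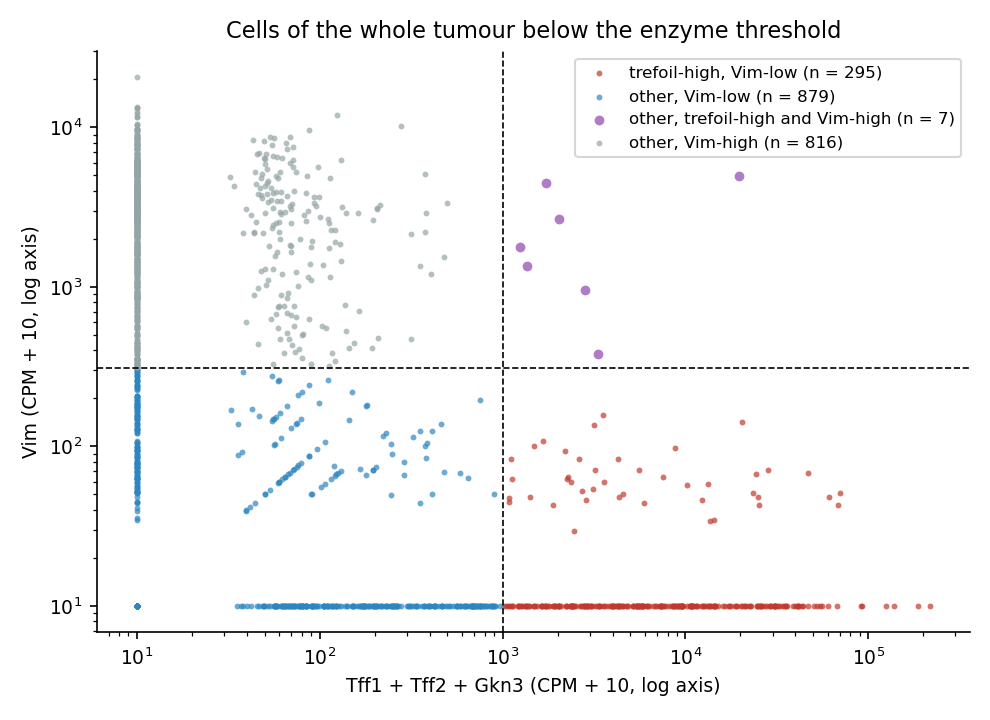
Each point is 1 of the 1997 kept whole-tumour barcodes below the enzyme threshold, placed by its summed Tff1, Tff2 and Gkn3 level (x axis) and its Vim level (y axis), both as CPM + 10 on log axes, with the thresholds dashed. The 295 trefoil-high cells fill the lower right, 43 of them with a Vim UMI, and 7 cells lie in the upper right.

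The 3 selecting genes did not always occur together. All 3 had a UMI in 104 cells, Tff1 with Tff2 in 58, Tff2 with Gkn3 in 98 and Tff1 with Gkn3 in 2, while 22 cells had Tff2 alone, 6 Tff1 alone and 5 Gkn3 alone. Tff2 was thus present in 95.6% of the cells, Gkn3 in 70.8% and Tff1 in 57.6%. After each cell was thinned to 5000 UMIs, which left 275 cells, Spearman's rho across cells was -0.29 between Tff1 and Gkn3, 0.16 between Tff2 and Gkn3 and 0.10 between Tff1 and Tff2. These cells share 1 library and were chosen on the same 3 genes, so the coefficients only describe them.

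The label of these cells as gastric-like and classical came with the markers Lgals4, Dmbt1 and Reg3b, which lie outside the rule. These markers were given in advance, so their levels describe the cells and do not test the label. Lgals4, a galectin of gut epithelium and a marker of classical tumours, had a lowest value of 0, a median of 814 and a highest value of 4365 CPM in trefoil-high cells, against 0, 0 and 3049 CPM in the other cells. Its summed level was 1024 CPM in trefoil-high cells and 83.6 CPM in the other cells, a log2 ratio of 3.61 (95% interval 3.55 to 3.68). Dmbt1, a scavenger receptor glycoprotein secreted onto mucosal surfaces, had a median of 1213 and a highest value of 22805 CPM in trefoil-high cells, against a median of 0 and a highest value of 18892 CPM in the other cells. Both ranges overlap, and the middle of each distribution is far apart. Reg3b, an antimicrobial lectin of inflamed pancreas and gut, was the least selective of the 3: its median was 835 CPM in trefoil-high cells and 0 CPM in the other cells, but the highest cell of each group had 52943 and 55876 CPM.

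Detection was compared at equal depth, because the share of cells with a UMI depends on depth. Thinning does not remove free RNA, which can give a UMI to a cell that does not express a gene. At 5000 UMIs per cell, Lgals4 was seen in 84.7% of trefoil-high cells (79.9 to 88.8), 13.6% of the other cells and 1.29% of Vim-high cells; without thinning the shares were 91.5%, 20.3% and 3.06%. Agr2, a chaperone of the endoplasmic reticulum needed for mucin folding, was seen in 66.9% of trefoil-high cells, 6.78% of the other cells and 1.55% of Vim-high cells (80.0%, 12.5% and 5.15% without thinning). Reg3b was seen in 62.5% of trefoil-high cells and 21.8% of the other cells. Among the other cells, Reg3b was seen in 31.0% of Vim-low and 11.8% of Vim-high cells, and in 3 of 13 barcodes rich in islet hormone or immunoglobulin RNA (23.1%, 5.04 to 53.8). Without thinning, Reg3b was seen in 75.6% of trefoil-high cells and 38.3% of the other cells. Free RNA in the droplets was not measured.

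Markers of other cell types were looked for in the same way. T cell markers (4 of 4) and both haemoglobin genes were at 0 in all trefoil-high cells, and Ptprc, which marks all leukocytes, was seen in 1 of the 295. Of 6 fibroblast markers, Col1a2, Lum and Dpt were at 0 and all 6 together reached 1.16 CPM in trefoil-high cells, against 36.0 CPM in the other cells. Of 8 acinar markers that were not part of the rule, all 8 had UMIs in trefoil-high cells, with a summed level of 1332 CPM (per cell 0 to 46308, median 164), against 173 CPM in the other cells (0 to 17291, median 80.4). Most of this was Ctrb1, a chymotrypsinogen, and 18 trefoil-high cells and 10 other cells stood at or above 5000 CPM of these markers. With only cells below 500 CPM of the rule's enzymes in both groups, an alternative chosen after seeing the data, list medians against the other cells were 4.06 for gastric mucous genes, 2.48 for classical genes, 1.94 for mucin glycosylation and -3.15 for mesenchymal genes. In the same setting, ion transport was at 1.38, proliferation at 1.17 and intestinal epithelium at 1.93, each lower than in all cells, and 770 genes were at least 2-fold higher and 942 lower. Epcam, the epithelial surface marker, was at 1879 CPM in trefoil-high cells and 2332 CPM in the other cells.

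Family members that the rule did not use followed the same cells. Gkn1, a gastrokine of surface mucous cells, was summed to 292 CPM in trefoil-high cells and 2.54 CPM in the other cells (log2 ratio 6.84, 6.51 to 7.20). It was high in few of them: the median was 0 CPM, the highest value 14892 CPM, and at equal depth 20% of trefoil-high cells had a UMI, against 1.13% of the other cells and 0.775% of Vim-high cells (34.9%, 3.35% and 2.45% without thinning). Gkn2, a partner of TFF1 in gastric mucus, was at 53.3 CPM in trefoil-high cells and 0.406 CPM in the other cells, with 70.6% of its UMIs in 5 cells. Tff3, the trefoil factor of intestinal goblet cells, was at 23.6 CPM in trefoil-high cells and 0.609 CPM in the other cells. At equal depth, Gkn2 was seen in 5.82% and Tff3 in 8.36% of trefoil-high cells. All 3 family members outside the rule were at least 2-fold higher in trefoil-high cells, against 7.66% of all measured genes. Each reached the mean of 5 CPM needed for a call only through trefoil-high cells, which fixed the direction of the call.

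The gastrokine genes lie side by side on chromosome 6 in the order Gkn1, Gkn2 and Gkn3. Their promoters, from 250 bases before to 50 bases after the annotated start, are shown because the 3 genes form 1 cluster and each was summed to a higher level in trefoil-high cells, Gkn3 through the rule; sequences and coordinates are from RefSeq on the build GRCm38.p6, whereas the counts were made on GRCm39. Capitals mark AGATAA and TGATAA, or their reverse complements, letters that GATA factors can bind.
Gkn1: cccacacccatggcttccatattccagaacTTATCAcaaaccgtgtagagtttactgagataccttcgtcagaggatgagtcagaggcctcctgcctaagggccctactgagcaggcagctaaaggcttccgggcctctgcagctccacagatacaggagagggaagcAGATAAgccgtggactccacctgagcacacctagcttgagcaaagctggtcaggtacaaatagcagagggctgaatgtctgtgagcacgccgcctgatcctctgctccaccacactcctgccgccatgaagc
Gkn2: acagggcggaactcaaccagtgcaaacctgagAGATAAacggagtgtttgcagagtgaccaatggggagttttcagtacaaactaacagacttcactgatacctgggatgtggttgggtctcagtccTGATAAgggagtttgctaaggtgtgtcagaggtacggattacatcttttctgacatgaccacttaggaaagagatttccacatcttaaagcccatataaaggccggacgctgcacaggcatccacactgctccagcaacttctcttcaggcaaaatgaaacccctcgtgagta
Gkn3: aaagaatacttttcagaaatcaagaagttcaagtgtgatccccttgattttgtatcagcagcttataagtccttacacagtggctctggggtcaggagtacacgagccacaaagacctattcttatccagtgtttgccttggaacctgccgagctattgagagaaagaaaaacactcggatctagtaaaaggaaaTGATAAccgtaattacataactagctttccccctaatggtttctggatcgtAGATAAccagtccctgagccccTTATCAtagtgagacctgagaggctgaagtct
The windows are chr6:87350866-87351165 on the minus strand for Gkn1, chr6:87373115-87373414 on the plus strand for Gkn2 and chr6:87388886-87389185 on the minus strand for Gkn3. Gkn1 and Gkn2 hold 2 such matches each and Gkn3 holds 3, and either motif occurs in 18.6% of the 32851 RefSeq promoters of the same length, counting both strands. The matches shown here do not overlap each other. Gkn2 also has TATAAA 29 bases before its start, a motif in 13.6% of promoters. Neither TGTTTAC (3.65% of promoters) nor TATTTAC (3.04%), letters of forkhead sites, is in these windows. A match of letters is not a measured site. Among 13 genes looked up, 7 had a promoter in the reference set used, and Tff1, Tff2, Tff3, Dmbt1, Muc5ac and Ctse did not. Of the matched genes not shown, Agr2, Lgals4 and Anxa10 hold 0 matches to AGATAA or TGATAA, and Reg3b holds 1. The motifs TATTTAC and TATAAA each occur in the windows of Reg3b and Anxa10.

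Both gene clusters had some neighbours that differed and others that did not reach 2-fold. Near Gkn1 on chromosome 6, Gfpt1, the rate-limiting enzyme that makes the amino sugars used in mucin glycosylation, was at 162 CPM in trefoil-high cells and 42.6 CPM in the other cells. The gene beyond it, Nfu1, an iron-sulphur cluster protein of mitochondria, was at 92.1 CPM in trefoil-high cells and 88.0 CPM in the other cells, and Bmp10, on the far side of Gkn3, was at 0 in both. On chromosome 17 the order is Tff3, Tff2 and Tff1. Near this cluster lies Glp1r, the receptor for the incretin GLP-1, at 72.0 CPM in trefoil-high cells and 10.2 CPM in the other cells. Slc37a1, a sugar-phosphate transporter, was at 26.9 CPM in trefoil-high cells and 9.13 CPM in the other cells. Dnah8, beyond Glp1r, was at 11.7 CPM in trefoil-high cells and 0.473 CPM in the other cells, from 71 and 14 UMIs. It reached a mean of 5 CPM only through trefoil-high cells. Of genes directly beside the clusters, Antxr1, next to Gkn1, was at 7.10 CPM in trefoil-high cells and 4.09 CPM in the other cells. Abcg1, next to Tff3, went the other way, at 5.28 and 8.38 CPM. Tmprss3, next to Tff1, had too few counts to compare, with 4 UMIs in trefoil-high cells and 1 in the other cells. The neighbours in this paragraph were named after their values were seen.

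Across all genes, 9941 reached a mean of 5 CPM over trefoil-high and other cells, and of these 761 (7.66%) were at least 2-fold higher and 920 (9.25%) at least 2-fold lower in trefoil-high cells. The median log2 ratio of all measured genes was -0.14, and list medians are read against it. With ratios centred on that median the counts were 907 higher and 736 lower.

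Genes of gastric mucous epithelium stood out in size: 9 of the 13 listed genes in the matrix were measured, and 9 were at least 2-fold higher in trefoil-high cells, with a median log2 ratio of 3.92. Some of the 9, such as Muc5ac and Pgc, reached the minimum mean only through trefoil-high cells, so their call was fixed. Muc5ac, the gel-forming mucin of gastric pit cells, was at 93.8 CPM in trefoil-high cells and 0.879 CPM in the other cells, and was at 0 in the 816 Vim-high cells. A Muc5ac UMI was seen in 11.3% of trefoil-high cells and 0.439% of the other cells at equal depth (14.2% and 0.940% without thinning), and the highest cell had 4882 CPM. Aqp5, a water channel of gland cells, was at 320 CPM in trefoil-high cells and 21.2 CPM in the other cells. Pgc, which encodes the digestive proenzyme progastricsin, was at 28.1 CPM in trefoil-high cells and 0.778 CPM in the other cells. Ctse, a protease of gastric surface cells, differed least of the 9: its median was 1412 CPM in trefoil-high cells and 308 CPM in the other cells, and the log2 ratio of the sums was 1.81 (1.77 to 1.85). Vsig1, Cldn18 and Anxa10, a junctional adhesion protein, a claudin and an annexin of gastric epithelium, had log2 ratios of 3.83, 2.00 and 3.49.

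The machinery that makes and sugars mucins was higher as well. All 4 measured mucin genes of the 10 in the matrix were at least 2-fold higher in trefoil-high cells; besides Muc5ac these were the membrane mucins Muc1, Muc4 and Muc20. Muc1 was at 454 CPM in trefoil-high cells and 105 CPM in the other cells, with UMIs at equal depth in 79.3% of trefoil-high cells, 30.4% of the other cells and 11.8% of Vim-high cells (97.6%, 50.8% and 27.2% without thinning). Of 23 genes of mucin glycosylation and secretion, 19 were measured, 13 were at least 2-fold higher and 0 lower, with a median log2 ratio of 1.94. They included Gcnt3, which branches mucin sugar chains, at 176 CPM in trefoil-high cells and 20.6 CPM in the other cells, and the chain-starting transferase Galnt7 at 164 CPM in trefoil-high cells and 42.7 CPM in the other cells. Ern2, the stress sensor of mucous cells, was at 27.2 CPM in trefoil-high cells and 1.05 CPM in the other cells. It reached the minimum mean only through trefoil-high cells, so its call was fixed. Agr2 had the highest ratio of the list, 4.83 (4.74 to 4.92), at 1100 CPM in trefoil-high cells and 38.7 CPM in the other cells. General chaperones differed less: of 13 measured genes of the unfolded protein response only Xbp1, a secretory-cell factor, reached 2-fold higher, and the list's median was 0.19.

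Of 20 classical subtype genes, 16 were measured, 14 were at least 2-fold higher and 0 lower, with a median log2 ratio of 2.40. Tspan8, a tetraspanin of differentiated gut epithelium, was at 1282 CPM in trefoil-high cells and 402 CPM in the other cells. Fxyd3, a regulator of the sodium pump, was at 1546 CPM in trefoil-high cells and 281 CPM in the other cells. Gpx2, a gut glutathione peroxidase, was at 600.5 CPM in trefoil-high cells and 108 CPM in the other cells. The exceptions among the measured genes were Atp10b at 0.74 and Cdh17, an intestinal cadherin, at -0.42. Phgr1, a small protein of gut surface cells, was at 268 CPM in trefoil-high cells and 10.4 CPM in the other cells. Of 16 intestinal epithelium genes, 6 were measured and 5 were at least 2-fold higher in trefoil-high cells, with a median log2 ratio of 2.77; Lgals4, Krt20 and Cdh17 belong to the classical list as well. The 5 were Lgals4, Phgr1, Krt20, the brush border protein gene Vil1 at 69.0 CPM in trefoil-high cells and 25.8 CPM in the other cells, and Clca1, a goblet cell gene with 90.3% of its UMIs in 5 cells. Cdx2, the factor that specifies intestine, and Sox2 had no UMI in either group.

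General epithelial genes separated the cells far less. Of 29 measured genes of epithelial identity, 6 were at least 2-fold higher and 0 lower, with a median log2 ratio of 0.39. Krt8, a keratin of simple epithelia, was at 3102 CPM in trefoil-high cells and 3154 CPM in the other cells, and Cdh1, which encodes E-cadherin, at 193 CPM in trefoil-high cells and 208 CPM in the other cells. The higher genes included the junction genes Ocln and Tjp3, the transcription factor Ovol1, the vesicle GTPase Rab25 and the protease Prss8.

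**Figure D2:**
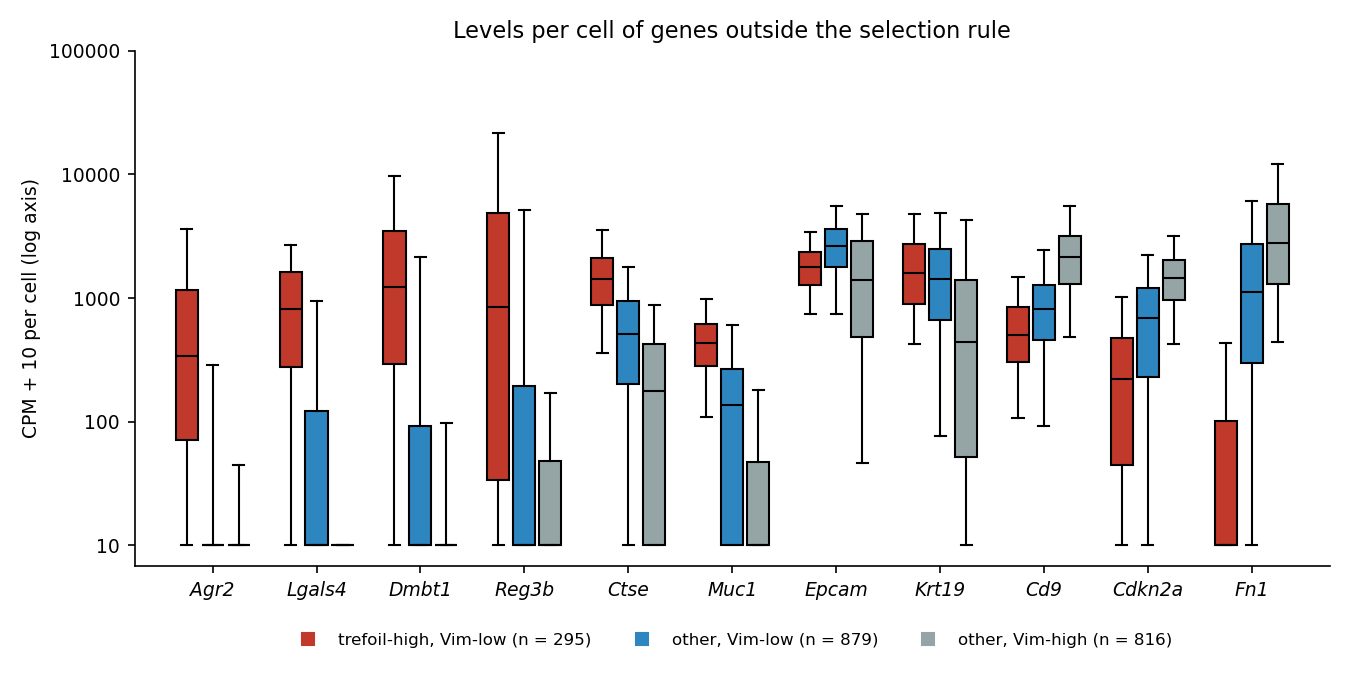
Boxes show the level per cell (CPM + 10, log axis) of 11 genes outside the rule in trefoil-high cells, in Vim-low cells below the trefoil threshold and in Vim-high cells below it; boxes span the quartiles, lines mark medians and whiskers reach the 5th and 95th percentiles of cells. Agr2, Lgals4 and Dmbt1 have medians of 329, 814 and 1213 CPM in trefoil-high cells and of 0 in the other groups, whereas Epcam differs little.

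Proteins that ducts secrete when inflamed were mostly higher. Of 26 such genes, 21 were measured, 11 were at least 2-fold higher and 2 lower, with a median log2 ratio of 1.63. Reg1, a lectin of injured pancreas, was at 5726 CPM in trefoil-high cells and 470 CPM in the other cells. Pigr, which carries antibodies across epithelia, was at 114 CPM in trefoil-high cells and 5.04 CPM in the other cells. Ltf, which encodes the iron-binding antimicrobial lactotransferrin, was at 215 CPM in trefoil-high cells and 26.0 CPM in the other cells. Duox2 and its partner Duoxa2, which make hydrogen peroxide at mucosal surfaces, were at 34.5 and 79.7 CPM in trefoil-high cells and at 2.57 and 5.48 CPM in the other cells. Duox2 reached the minimum mean only through trefoil-high cells, so its call was fixed. The neutrophil attractant Cxcl1 went the other way, at 61.1 CPM in trefoil-high cells and 211 CPM in the other cells, as did the chemokine Ccl20 at 5.12 and 10.9 CPM. Genes of the Reg, Gsta, Sprr2 and Chil families have near-identical copies, and how their reads were divided is uncertain.

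Transcription factors of gut and pancreas showed smaller ratios. Of 25 listed, 18 were measured, 10 were at least 2-fold higher and 0 lower, with a median log2 ratio of 1.10. Spdef, which drives mucous cell maturation, had the highest at 3.33 (2.97 to 3.71), at 31.7 CPM in trefoil-high cells and 3.14 CPM in the other cells. Its call was fixed, since it reached the minimum mean only through trefoil-high cells. Elf3, an epithelial ETS factor, was at 319 CPM in trefoil-high cells and 67.5 CPM in the other cells. Gata6, a marker of classical tumours, was at 47.9 CPM in trefoil-high cells and 21.8 CPM in the other cells, Gata5 at 34.7 and 7.67 CPM, and Gata4 at 14.5 and 6.25 CPM. Hnf4a, a regulator of gut and liver identity, was at 28.2 CPM in trefoil-high cells and 11.6 CPM in the other cells. Pdx1, which patterns pancreas and distal stomach, was at 35.3 CPM in trefoil-high cells and 13.0 CPM in the other cells. At equal depth Gata6 was seen in 17.5% of trefoil-high cells (13.2 to 22.5) and 9.79% of the other cells (8.37 to 11.4), and without thinning in 47.5% and 24.7%.

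Ion and fluid transport genes followed the secretory ones: of 15 measured, 8 were at least 2-fold higher and 1 lower, with a median log2 ratio of 1.70. Cftr, the chloride channel of pancreatic ducts, was at 164 CPM in trefoil-high cells and 18.7 CPM in the other cells. Car2, a carbonic anhydrase that supplies bicarbonate, was at 620 CPM in trefoil-high cells and 95 CPM in the other cells. Slc26a9, an anion transporter of gastric epithelium, was at 27.7 CPM in trefoil-high cells and 7.0 CPM in the other cells. Aqp1, the water channel of small ducts and vessels, was lower, at 5.94 CPM in trefoil-high cells and 19.7 CPM in the other cells.

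On the opposite side stood the mesenchymal programme, in part through the rule, which removed cells with Vim. Of 21 mesenchymal genes other than Vim, 14 were measured, 0 were at least 2-fold higher and 12 lower, with a median log2 ratio of -2.53. Fn1, which encodes the matrix protein fibronectin, had a median of 0 and a highest value of 2117 CPM in trefoil-high cells, against 1814 and 28850.5 CPM in the other cells. Tnc, the matrix protein tenascin C, was at 2.64 CPM in trefoil-high cells and 585 CPM in the other cells, and no trefoil-high cell exceeded 63.5 CPM. All 4 measured factors of epithelial-mesenchymal transition were lower: Twist1, Zeb1 and Zeb2 were at 1.82, 1.32 and 0.660 CPM in trefoil-high cells and at 32.3, 21.9 and 31.9 CPM in the other cells, and the chromatin protein gene Hmga2 at 25.6 and 280 CPM. Twist1, Zeb1 and Zeb2 reached the minimum mean only through the other cells, so their call was fixed. Basal and squamous genes were mixed, with 5 of 11 measured lower, among them Krt17 at 17.7 CPM in trefoil-high cells and 98.9 CPM in the other cells, and 2 higher, Ly6d and Sprr1a.

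Because Vim entered the rule, the trefoil-high cells were also set against the 879 Vim-low cells below the trefoil threshold. Of 9998 measured genes, 505 (5.05%) were at least 2-fold higher and 656 (6.56%) lower in trefoil-high cells, with a median of -0.15; centred on that median the counts were 606 and 504. Gastric mucous genes were again 9 of 9 higher (median 3.03), classical genes 13 of 16 higher with 1 lower (1.68), mucin glycosylation genes 12 of 19 higher (1.42) and inflamed duct genes 11 of 21 higher with 3 lower (1.02). Of 13 measured mesenchymal genes 8 were lower (-1.78), and of 4 transition factors 4 were lower (-2.80). Epithelial identity was level here, with 2 of 29 higher and a median of 0.05. Fn1 was at 97.9 CPM in trefoil-high cells and 1852 CPM in these Vim-low cells, so its lower level was also seen with Vim low in both groups. S100a4, Sparc, Axl, Bgn and Aebp1 were called lower against the other cells but not here, while Tagln was called lower here and not there. Lineage factors narrowed to 5 of 18 higher: Gata5, Pdx1, Sox17, Elf3 and Spdef, while Gata6 had a log2 ratio of 0.64 and Hnf4a of 0.72. Against the 816 Vim-high cells, 11.5% of 9876 measured genes were at least 2-fold higher and 12.2% lower in trefoil-high cells, and 14 of 29 epithelial identity genes were higher.

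**Figure D3:**
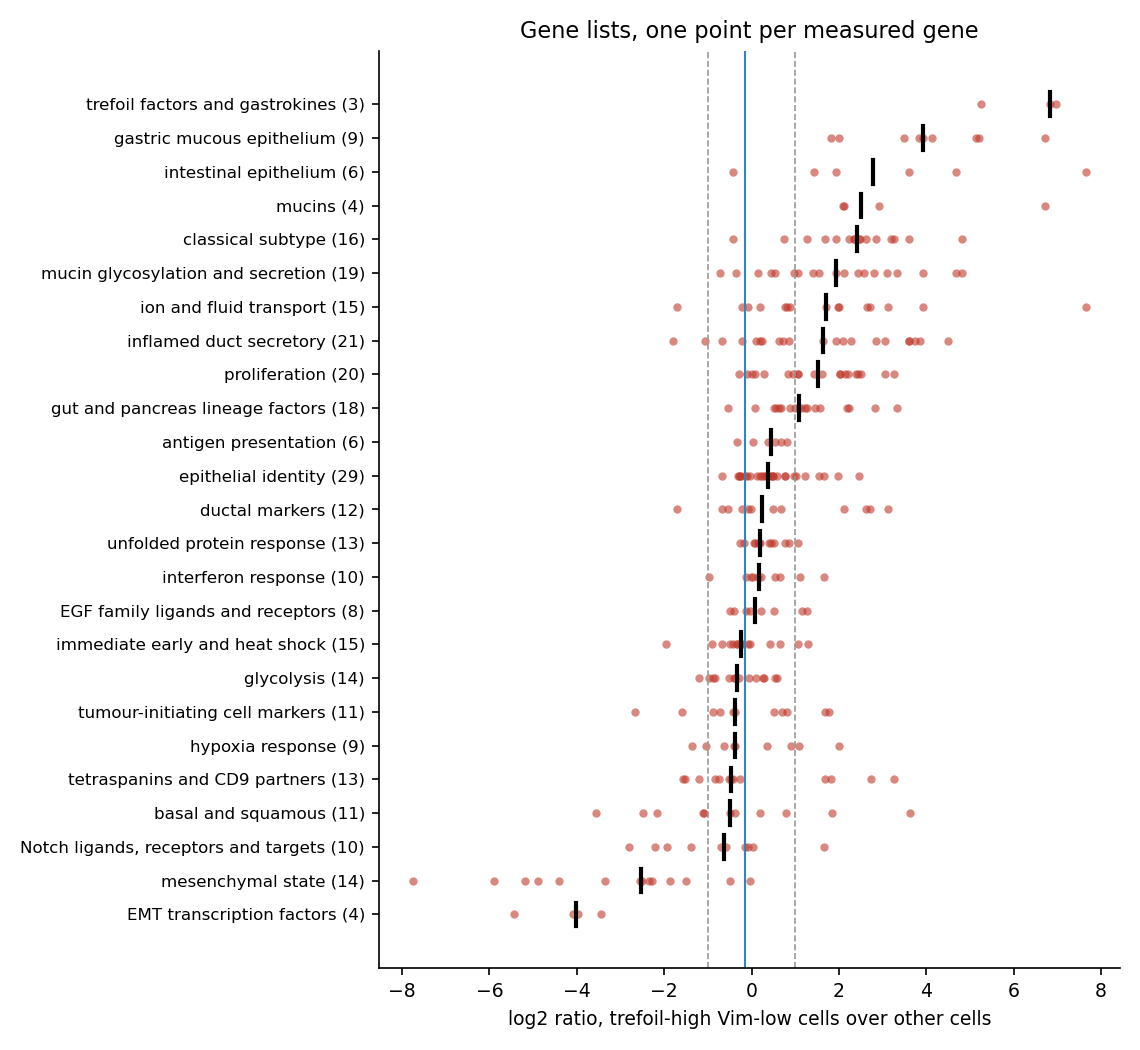
Each point is 1 measured gene of a list, placed by its log2 ratio of summed CPM in trefoil-high cells over the other cells; black bars are list medians, dashed lines mark 2-fold, the blue line the median of all measured genes at -0.14, and brackets give the number of measured genes. Medians run from 6.84 for the trefoil and gastrokine genes outside the rule to -4.03 for the transition factors.

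RNA of CD9, the tetraspanin on whose surface protein the second library was sorted, was lower in these cells than in the other cells. Cd9 had a median of 492 and a highest value of 1801 CPM in trefoil-high cells, against 1250 and 14499.9 CPM in the other cells. The sums were 614 CPM in trefoil-high cells and 1772 CPM in the other cells, a log2 ratio of -1.53 (-1.58 to -1.48). Vim-low cells were at 1012 CPM, a difference that did not reach 2-fold, and Vim-high cells at 2525 CPM. Most cells had Cd9 RNA: at equal depth it was seen in 85.8% of trefoil-high cells and 96.2% of the other cells (95.6% and 97.1% without thinning). Cd151, a partner of CD9, was at 95.4 CPM in trefoil-high cells and 285 CPM in the other cells. The tetraspanins Tspan1, Tspan8, Tspan13 and Tspan15 were at least 2-fold higher. Jag1, a Notch ligand, was at 15.5 CPM in trefoil-high cells and 109 CPM in the other cells; at equal depth it was seen in 5.45% of trefoil-high cells (3.08 to 8.84) and 30.2% of the other cells (24.1% and 54.2% without thinning). Of 10 measured Notch genes, Jag1, Dll4, Notch2 and Nrarp, a Notch target, were lower, 1 was higher (the ligand Dll1) and Hes1, another target, did not reach 2-fold at -0.57.

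Cdkn2a and Cdkn2b were lower too, while Trp53 did not reach 2-fold. Cdkn2a, whose products halt the cell cycle, had a median of 213 CPM in trefoil-high cells and 1047 CPM in the other cells, with sums of 355 and 1210 CPM. Cdkn2b, its neighbour in the genome with a like role, was at 129 CPM in trefoil-high cells and 640 CPM in the other cells.

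Genes of cell division were higher in sum, through a minority of cells. Of 20 measured proliferation genes, 13 were at least 2-fold higher in trefoil-high cells and 0 lower, with a median log2 ratio of 1.52. Mki67, a marker of dividing cells, was at 31.0 CPM in trefoil-high cells and 3.21 CPM in the other cells. It reached the minimum mean only through trefoil-high cells, so its call was fixed. At 5000 UMIs per cell, at least 3 UMIs of 9 genes of division were present in 9.82% of trefoil-high cells (6.57 to 14.0), 1.19% of the other cells (0.719 to 1.86), 1.97% of Vim-low cells and 0.388% of Vim-high cells. Without thinning the shares were 15.6%, 4.58%, 5.57% and 3.43%. The sum of Mki67 was highest near the trefoil threshold, at 77.5 CPM (60.6 to 97.6) in the 47 cells with 1000 to 2000 CPM of the trefoil genes against 15.9 CPM (11.2 to 21.8) in the 108 cells at 10000 CPM and above, but 3 cells held 68.1% of the Mki67 UMIs of the lowest bin. At equal depth, cells with at least 3 division UMIs were 8 of 42 in that bin (19.0%, 8.60 to 34.1) and 7 of 102 in the highest (6.86%, 2.80 to 13.6), shares whose intervals overlap; without thinning they were 19.1% and 15.7%. With a trefoil threshold of 2000 CPM the log2 ratio of Mki67 was 2.05 in place of 3.27.

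By rule, the genes named at the extremes were the 20 highest and 15 lowest ratios with a mean of at least 50 CPM. The 20 highest were Gkn1, Gsta1, Lypd8l, Agr2, Gp2, Phgr1, Chil4, Sprr2a3, Pigr, Sptssb, Aqp5, Sult1c2, Ly6d, Lgals4, Reg1, Dmbt1, Ckmt1, Anxa10, Tmem45a and Gsta3. Gsta1, a detoxifying glutathione transferase, was at 117 CPM in trefoil-high cells and 1.83 CPM in the other cells. Gp2, a glycoprotein of secretory granules, was at 122 CPM in trefoil-high cells and 4.40 CPM in the other cells. Chil4 is a case of few cells: 98.4% of its UMIs in trefoil-high cells came from 3 cells, and the log2 ratio was 8.49 at a trefoil threshold of 500 CPM in place of 4.56. Against Vim-low cells the 10 highest added 1 gene, the neuropeptide gene Npy, of which 65.7% of UMIs came from 3 cells.

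The 15 lowest fell into separate sets. Jchain, Igha, Iglc1, Igkc, Ins1, Ins2 and Iapp encode antibody chains and islet hormones, and 14 barcodes among the other cells, 3 rich in immunoglobulin and 11 in islet hormone RNA, moved their ratios. Without those barcodes only Jchain was still at least 2-fold lower, at -1.42. The others were then at -0.84 for Igha, -0.20 for Igkc, 0.64 for Iglc1, 0.089 for Ins1, 0.83 for Ins2 and 0.49 for Iapp. The remaining 8 encode matrix, growth factor and protease proteins, for the most part. Inhba, a subunit of activin, was at 1.82 CPM in trefoil-high cells and 160 CPM in the other cells. Igfbp4, which binds insulin-like growth factors, was at 47.4 CPM in trefoil-high cells and 908 CPM in the other cells. Csf2, which encodes the cytokine GM-CSF, was at 18 CPM in trefoil-high cells and 490 CPM in the other cells. Gzme and Mcpt8, proteases best known from immune cells, were at 5.61 and 15.5 CPM in trefoil-high cells and at 120 and 261 CPM in the other cells. Tnc, Fn1 and Uchl1, a deubiquitinase of neurons and endocrine cells, completed the set.

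Hormone RNA of single cells reached large sums in trefoil-high cells as well. Ghrl, which encodes the stomach hormone ghrelin, was at 1955 CPM in trefoil-high cells and 525 CPM in the other cells, but 99.9% of the UMIs came from 3 of the 295 cells. Ppy, a pancreatic polypeptide gene, was at 706 CPM in trefoil-high cells and 649 CPM in the other cells, with 99.8% of it in 1 cell. These sums say nothing about the typical cell, whose level of both was 0.

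The trefoil-high cells were then divided by which of the 3 selecting genes had the most UMIs, a split chosen after the values were seen. Counts are of 3′ ends, 1 per molecule, so transcript length does not enter. Tff2 led in 159 cells, Gkn3 in 84 and Tff1 in 52, with median depths of 18534, 20354 and 23930 UMIs. Each group is described by what was higher in it than in the rest of the trefoil-high cells.

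In the 52 cells led by Tff1, the 10 highest ratios over the rest were those of Gsta1, Muc5ac, AW112010, Cldn18, Peg3, Akr1c13, Mxd1, Tspan1, Cyp3a13 and Cpn1. Muc5ac was at 365 CPM in them and 27.9 CPM in the rest, with a UMI in 50.0% of the Tff1-led cells, 8.81% of the Tff2-led cells and 2.38% of the Gkn3-led cells. Cldn18 was at 414 CPM in Tff1-led cells and 55.0 CPM in the rest, Gsta1 at 462 and 33.2 CPM, and Tspan1 at 464 and 96.2 CPM. Krt20, a keratin of mature gut surface cells, was at 306 CPM in Tff1-led, 92.3 CPM in Tff2-led and 41.2 CPM in Gkn3-led cells. Sox17, an endoderm factor, was at 51.5, 12.1 and 0.528 CPM in the same order. Several inflamed duct genes were low there: Lcn2, an iron-scavenging protein, was at 3.38 CPM in Tff1-led, 1142 CPM in Tff2-led and 292 CPM in Gkn3-led cells. Reg3b was at 157, 5607 and 3203 CPM in that order, and Mmp7, a secreted protease, at 0, 208 and 128 CPM.

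Tff2-led cells had the highest levels of these secretory genes, and their 10 highest ratios over the rest were Lcn2, Lbp, Ly6d, Reg3b, Reg1, Mmp7, Dmbt1, Olfm4, Sult1c2 and Pigr. Dmbt1 had a median of 2163 CPM in Tff2-led, 1269 CPM in Gkn3-led and 132 CPM in Tff1-led cells. Olfm4, a secreted marker of gut stem and progenitor cells, was at 125 CPM in Tff2-led cells and 50.7 CPM in the rest.

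In Gkn3-led cells the 10 highest ratios over the rest were those of Rbp4, Igfbp4, Trf, Ttr, Ltbp4, Spink4, Ccn2, Col18a1, Ramp1 and Oat. Rbp4, the retinol carrier, was at 111 CPM in Gkn3-led cells and 14.4 CPM in the rest. Trf, which encodes transferrin, was at 297 CPM in Gkn3-led cells and 91.0 CPM in the rest, and Ttr, which encodes transthyretin, at 192 and 70.9 CPM. Rbp4 and Ttr had medians of 0 CPM in Gkn3-led cells and highest cells at 5063 and 4240 CPM. Most hormone RNA was in this group: Ghrl was at 6244 CPM in Gkn3-led cells and 3.12 CPM in the rest, Ppy at 2254 and 1.68 CPM, Gcg, which encodes glucagon, at 871 and 0.721 CPM, and Chga, a granule protein gene of endocrine cells, at 155 and 0 CPM. Of the 84 cells, 7 had a Ghrl UMI, 1 a Ppy UMI, 2 a Gcg UMI and 3 a Chga UMI. Pgc was at 57.5 CPM in Gkn3-led, 20.5 CPM in Tff2-led and 0 CPM in Tff1-led cells. Spink4, a goblet cell peptide, was at 88.1, 44.0 and 13.5 CPM in the same order. Spdef was at 51.7 CPM in Gkn3-led, 24.5 CPM in Tff2-led and 17.7 CPM in Tff1-led cells. Levels that the 3 groups shared were those of Lgals4 (908, 1135 and 928 CPM in Gkn3-led, Tff2-led and Tff1-led cells), Ctse (1406, 1710 and 1851 CPM) and Pdx1 (36.9, 34.9 and 33.8 CPM). Acinar RNA was uneven: Ctrb1 was at 1151, 422 and 3066 CPM in that order, with medians of 58.7, 56.7 and 90.3 CPM. The acinar transcription factors Ptf1a and Rbpjl were at 31.2 and 33.8 CPM in Tff1-led cells and at 1.64 and 2.05 CPM in the rest, with UMIs in 11 and 10 of the 52 cells.

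**Figure D4:**
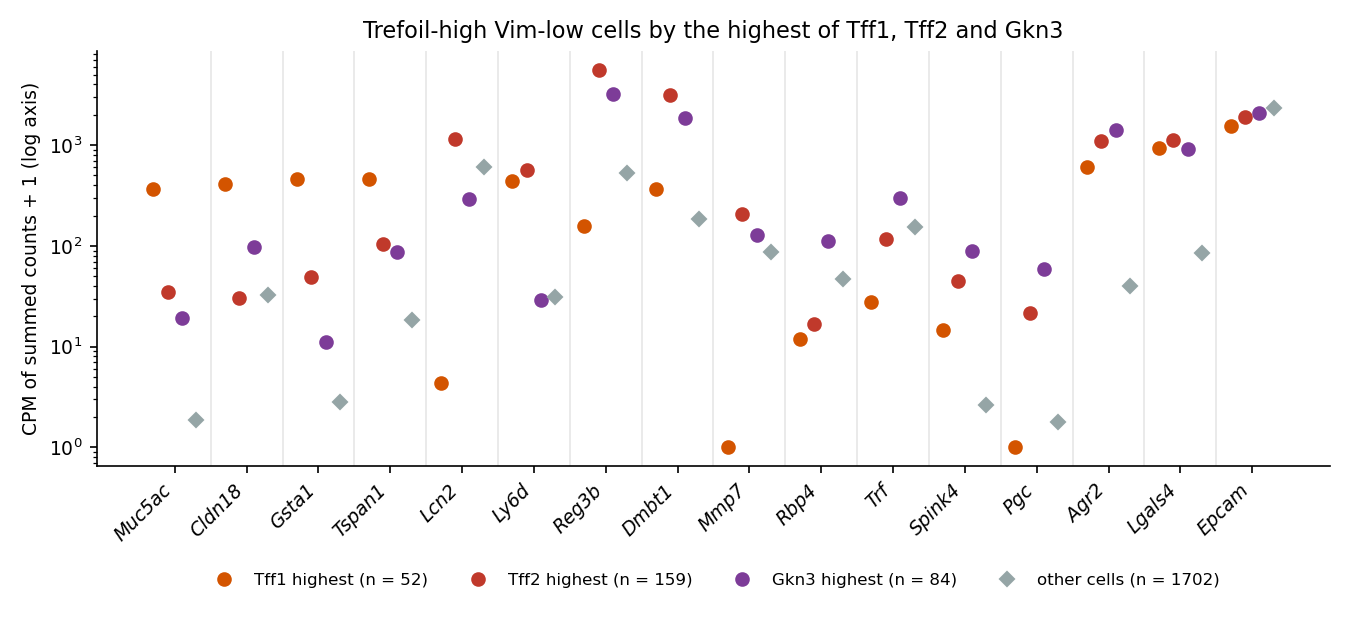
Points give CPM of summed counts + 1 (log axis) for 16 genes in trefoil-high cells led by Tff1, Tff2 or Gkn3 and, as grey diamonds, in the 1702 other cells. Muc5ac, Cldn18, Gsta1 and Tspan1 are highest in the Tff1-led cells, which have the lowest Lcn2, Reg3b and Mmp7, while Lgals4 and Epcam are at like levels in all groups of trefoil-high cells.

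Levels along the trefoil scale were compared in bins of Vim-low cells, with the trefoil sum itself as the axis. Agr2 was at 12.6 CPM in the 544 cells without a trefoil UMI, 144 CPM in 335 cells above 0 and below 1000 CPM, and then 281, 405, 635 and 2100 CPM in trefoil-high cells of 1000 to 2000, 2000 to 5000, 5000 to 10000 and at least 10000 CPM. The counting intervals of neighbouring bins did not overlap for Agr2. Lgals4 went through 61.2, 299, 714, 934, 1009 and 1209 CPM over the same bins, and Ctse through 531, 831, 1254, 1390, 1727 and 1916 CPM. Reg3b and Dmbt1 differed below the threshold and not in order above it: Reg3b was at 285, 1933, 4635, 3664, 3906 and 3486 CPM. In the opposite direction, Fn1 was at 2363, 1154, 200.2, 143, 64.2 and 45.5 CPM, and Cdkn2a at 921, 776, 411, 446, 325 and 288 CPM. Jag1 went through 74.0, 37.8, 21.5, 16.1, 15.2 and 12.9 CPM, where the intervals of the last 4 bins overlap. With the trefoil UMIs left out of the totals, the top bin had 2168 CPM of Agr2 and 47.0 CPM of Fn1.

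**Figure D5:**
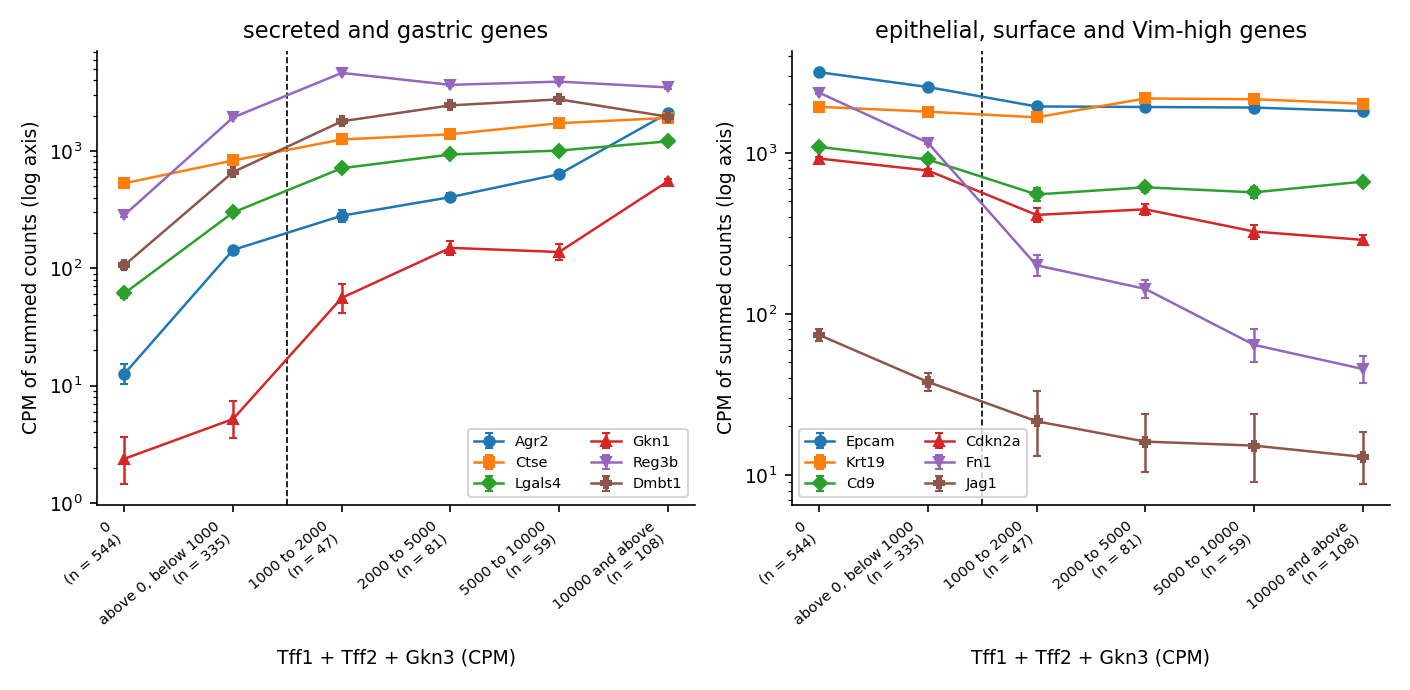
Lines give CPM of summed counts (log axis) in 6 bins of Vim-low cells ordered by the summed trefoil level, with 95% Poisson intervals as bars; the dashed line is the threshold of 1000 CPM, and trefoil-high cells lie right of it. Agr2 climbs from bin to bin to 2100 CPM, Reg3b and Dmbt1 level off, and Fn1 descends to 45.5 CPM.

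Among 2158 genes compared across the 275 thinned trefoil-high cells, the 10 with the highest Spearman rho to the trefoil sum were Agr2 (0.42), Fxyd3 (0.36), Ctse (0.32), Cystm1, Phgr1, Mcpt2, Tspan8, Il18, Gsto1 and Degs2 (0.27). The lowest were Igfbp7 (-0.38), which encodes a secreted growth factor binding protein, and Lcn2 (-0.34). Reg3b was at -0.12 and Dmbt1 at 0.00. These coefficients describe cells of 1 library and 1 depth. A UMI of trefoil RNA takes the place of another UMI at that depth; with the trefoil UMIs left out, Agr2 was at 0.46 and Igfbp7 at -0.34.

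The CD9hi library held few such cells. By the same rule 19 of its 5092 kept barcodes qualified, or 0.373% (0.225 to 0.582), against 11.6% of the whole tumour. The library was sorted on CD9, and the effect of the sort on this share cannot be told apart from any other difference between the libraries. Of Vim-low barcodes below the enzyme threshold, trefoil-high cells were 5.19% (3.15 to 7.99) in the CD9hi library and 25.1% (22.7 to 27.7) in the whole tumour. The 19 cells had a lowest trefoil sum of 1023, a median of 10785 and a highest of 57857 CPM. Their Lgals4 level was 1100 CPM, against 3.65 CPM in the other cells of that library, and Agr2 2510 against 6.29 CPM. Gkn1 had a UMI in 13 of the 19 cells. Ctse had one in all 19, with a lowest value of 296, a median of 2562 and a highest of 5080 CPM. Reg3b was rarer, with a UMI in 7 of the 19 and a median of 0 CPM. Of the 20 genes named as highest in the whole tumour, 19 were also at least 2-fold higher in these 19 cells, and Chil4 had 0 UMIs in both groups. Of the 15 named as lowest, 14 could be compared and 11 were at least 2-fold lower. The exceptions Jchain, Igha and Igkc had 0 UMIs in the 19 cells and 18, 8 and 6 UMIs in the other cells of that library. The share of all genes called at least 2-fold in the CD9hi library was not computed. The 19 cells were also chosen on the same trefoil genes, so these counts only describe them.

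Several further lists had median log2 ratios between -0.37 and 0.46, against -0.14 for all measured genes, though some held called genes in both directions. Of all measured genes, 7.66% were at least 2-fold higher and 9.25% lower. Of 10 measured interferon response genes 2 were higher and 0 lower, of 6 antigen presentation genes 0 were higher or lower, and of 14 glycolysis genes only the lactate exporter Slc16a3 was lower. Hypoxia genes divided, with Car9 and Egln3 higher and Vegfa and Ddit4 lower among 9 measured. Tumour-initiating cell markers divided too: Prom1 and Aldh1a1 were higher, Cd44 and Lgr5 lower, among 11 measured. Prom1, which encodes the surface protein CD133, was at 314 CPM in trefoil-high cells and 92.6 CPM in the other cells, and Cd44, a hyaluronan receptor, at 216 and 648 CPM.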

How the data were processed

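The authors deposited raw UMI counts per gene and barcode for each library, made from 3′ droplet libraries on the build GRCm39. The submitters' processing notes name Cell Ranger 7.0.0 and the file header names version 6.1.2; whether introns or strand were counted is not given in the sources used here. A barcode was kept with 500 or more genes, 1000 or more UMIs and no more than 20% of them mitochondrial; doublets were left in. Counts were summed over the cells of a class and divided by their total (CPM); log2 ratios of those sums had 0.5 counts added. A gene was measured with a mean of at least 5 CPM over both classes, and at least 2-fold was the call. Intervals are 95% Poisson or Clopper-Pearson intervals and cover counting error only. Detection was compared after thinning cells to 5000 UMIs. Some items of the labels and lists are not reported here. Genes named at the extremes followed the rule given beside them. The members, gene lists and thresholds were chosen with earlier results of these data known. The ratios were tested on simulated data with known changes. Python 3.11.15, numpy 2.4.6, scipy 1.17.1, pandas 2.3.3 and scanpy 1.11.5 were used. Alternatives covered the thresholds, barcode filters, gene minimum, fold, added counts, centring, doublets and the comparison cells.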

Additional observations from a re-analysis of the deposited data

Results flagged for a closer look

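Of 162 listed or named genes at least 2-fold higher or lower in the whole tumour, 1 had a counting interval wholly on the opposite side of 0 in the CD9hi library. Cldn18, a claudin of gastric epithelium, had a log2 ratio of trefoil-high over other cells of -0.71 in the CD9hi library and 2.00 in the whole tumour. It had 19 UMIs in the 19 CD9hi cells, and 7 of the 19 had one. The difference between the libraries was not tested.

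Outside the comparisons, 295 further Vim-low barcodes of the whole tumour reached the trefoil threshold but lay at or above the enzyme threshold, 245 of them at 50000 CPM of the enzymes or more. In trefoil-high cells and these barcodes, Gkn1 was at 292 and 2.75 CPM and Muc5ac at 93.8 and 2.20 CPM. In the same order, Lgals4 was at 1024 and 49.0 CPM, Epcam at 1879 and 418 CPM and Ctrb1 at 1167 and 189408 CPM. The given markers Reg3b and Dmbt1 were higher in these barcodes, at 3790 and 21867 CPM and at 2217 and 3658 CPM.

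The TdTomato reporter had 10 UMIs in the CD9hi library, in 8 barcodes of which 0 were trefoil-high cells. It had 6 UMIs in the whole tumour, in 5 barcodes of which 1 was a trefoil-high cell. These counts exceed the 3 that a count of 0 allows.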

How the results depend on the processing

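No paired analysis was possible because each group is 1 library, and for the same reason no replicate could be left out. Over 21 alternatives, 17 planned and 4 chosen after seeing the data, 1004 of 1050 list medians stayed within 0.25 (log2) of their value, 45 moved and 1 reversed, and of 462 values of medians called at least 2-fold, 14 were below 2-fold. The reversal was in proliferation, whose median against the other cells was -0.050 with a mean of at least 50 CPM. Of 2226 gene ratios, 1920 stayed within their counting interval, 295 moved and 11 reversed, and of 1932 values of genes called at least 2-fold, 25 were below 2-fold. Some alternatives could not move these values, so the counts of unchanged values are inflated. The 1.5-fold call changes no ratio or median, and the gene minimum changes no gene ratio. Centring shifts list medians by less than 0.25. A Vim threshold of 150 CPM left the contrast with the other cells as it was. Trefoil-high cells were 13.8% of the whole tumour at a trefoil threshold of 500 CPM, 9.73% at 2000 CPM and 10.2% with the enzyme sum below 500 CPM (added). Counts of genes higher and lower than in the other cells were 1415 and 1534 with a mean of at least 1 CPM, 148 and 242 with at least 50 CPM, and 1362 and 2050 at 1.5-fold. Against Vim-low cells they were 930 and 1322, 109 and 129, and 962 and 1676 under the same settings. Reversed ratios were all of hormone and antibody genes. Without the islet and immunoglobulin barcodes (added), the ratios against the other cells were 0.49 for Iapp, 0.64 for Iglc1, 0.089 for Ins1 and 0.83 for Ins2, and against Vim-low cells 0.33 for Iapp, 0.28 for Iglc1 and 0.51 for Ins2. Iglc1 was also at 0.53 against the other cells and 0.14 against Vim-low cells with doublets removed, and at 0.60 and 0.29 with comparison cells of at least 300 CPM of Epcam. Doublet removal took 63 whole-tumour barcodes, 5 of them trefoil-high; the automatic call marked 0.549%. The cause of these shifts was not tested, apart from the barcodes left out. Igha, Igkc and Jchain were at -1.06, -0.21 and -1.35 against the other cells with doublets removed. Apart from hormone and antibody genes, Chil4 and Mki67, the ratios against the other cells that moved by over 1.5 times were those of Muc5ac (5.72) and Tff3 (4.51) with a trefoil threshold of 2000 CPM, of Inhba (-5.10), Pigr (5.18) and Uchl1 (-4.29) with one of 500 CPM, of Reg1 (2.77) with the higher of the alternative enzyme thresholds, and of Npy (1.64) with comparison cells of at least 300 CPM of Epcam. Against Vim-low cells those of Muc5ac, Tff3, Gkn1, Gkn2 and Pigr did so and stayed at least 2-fold higher. Genes with few UMIs, such as Gata4 and Spdef, are limited by depth in single cells.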
